A study of Mus musculus with 13 samples.

Results

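Fgf5, Otx2, Pou3f1, Lef1, Sox3, Sall2 and Tcf15 are genes associated with the formative and primed states of the pluripotent epiblast, the tissue from which the embryo proper forms. They were picked by symbol from 26797 genes in the per-sample RNA-seq tables of a mouse embryonic stem (ES) cell study, and the same Ensembl identifiers were then taken from 49671 genes of a joint count table. All 7 were present in both.

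The study asked what keeps methylated promoters silent, and it sequenced polyA RNA from ES cells that had lost DNA methylation or in which the protein modification O-GlcNAc was removed at a retrotransposon promoter. WT cells were AinV15, an ES line built to accept doxycycline-inducible transgenes, and were untreated. Dnmt1-/- cells were a separate ES line, named in the labels as the D1-null strain with the C allele, and were also untreated. Dnmt1 is the maintenance DNA methyltransferase. The dCas9-OGA cells were WT cells carrying a catalytically dead Cas9 fused to an O-GlcNAc hydrolase, and the dCas9-OGA-D242A cells carried the same fusion with a change that inactivates the hydrolase. Both fusions were given with 4 guide RNAs to IAP retrotransposons and were induced with doxycycline at 1 µg/mL for 48 h. All cells grew on gelatin in serum with leukemia inhibitory factor (LIF). Each genotype was represented by 1 line, so that loss of Dnmt1 and a difference between lines cannot be told apart.

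WT and Dnmt1-/- cells each had 3 replicate libraries, with 26846275 to 37112247 gene-assigned reads. A second set held 1 library each of WT, Dnmt1-/-, dCas9-OGA and dCas9-OGA-D242A cells, with 18693531 to 25097983. The labels do not say whether replicates were separate cultures, so p-values measure only the spread between these libraries. The sets were normalised separately, and normalised levels are compared only within a set. The Dnmt1 transcript was at 336 ± 24.1 normalised reads in WT and 75.5 ± 2.02 in Dnmt1-/- cells (SD, n = 3 each), and in the single libraries it was at 61.9 cpm (counts scaled to library size) in the Dnmt1-/- library and between 375.7 and 548.5 cpm in the others. The label of ES cells was checked with Pou5f1 and Nanog, 2 defining pluripotency factors. In the replicates Pou5f1 was at 306 ± 10.5 normalised reads in WT and 272 ± 9.91 in Dnmt1-/- cells, and Nanog at 706 ± 23.0 and 747 ± 16.8. Nanog was between 185.8 and 388.2 cpm in the single libraries.

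ES cells kept in serum and LIF fluctuate between a naive state, which resembles the preimplantation epiblast, and states closer to the epiblast after implantation. On leaving the naive state, cells lower the factors that hold it and switch on a formative programme. FGF signalling through ERK promotes that step. Tcf7l1 acts as a repressor of naive genes until Wnt signalling relieves it. Fgf5 is a secreted FGF ligand and a classical marker of the postimplantation epiblast. Otx2 is a homeodomain factor that helps drive the transition, Pou3f1 (Oct6) is a POU factor of the primed epiblast and early neural lineage, Sox3 is a SoxB1 factor related to Sox2, and Sall2 is a spalt-family zinc finger factor. Lef1 is a nuclear partner of β-catenin. Tcf15 is a basic helix-loop-helix (bHLH) factor found in ES cells poised to differentiate, and Id proteins antagonise factors of its class.

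The promoters of the genes that are lower in Dnmt1-/- replicates, and of Lef1, are shown because Dnmt1 copies methylation at CpG dinucleotides. Windows of 300 bases, from 250 before to 50 after a transcript start, were taken from RefSeq on build GRCm38.p6. They were found for 4 of the 7 genes (11 windows). Pou3f1, Sox3 and Tcf15 had no entry in the set of windows used, which does not mean that RefSeq lacks them. Capitals mark CpG pairs and each sequence is written 5′ to 3′ on the strand of the gene. Fgf5 lies at chr5:98253934-98254233 (plus strand), with 29 CpGs. Otx2 has RefSeq windows at chr14:48667595-48667894 (minus strand), with 6 CpGs, and further downstream at chr14:48665060-48665359 (minus strand), with 16, both inside the gene as GENCODE annotates it. Sall2 has windows at chr14:52328621-52328920 and chr14:52316274-52316573 (both minus strand), with 1 and 10 CpGs. Lef1 is shown at chr3:131110047-131110346 (plus strand), with 18. Of the 4 Otx2 windows the most upstream and the one holding a motif described below are shown, and of the 4 Lef1 windows the most upstream. The Otx2 windows left out hold 8 and 11 CpGs and those of Lef1 hold 21, 8 and 5.
Fgf5: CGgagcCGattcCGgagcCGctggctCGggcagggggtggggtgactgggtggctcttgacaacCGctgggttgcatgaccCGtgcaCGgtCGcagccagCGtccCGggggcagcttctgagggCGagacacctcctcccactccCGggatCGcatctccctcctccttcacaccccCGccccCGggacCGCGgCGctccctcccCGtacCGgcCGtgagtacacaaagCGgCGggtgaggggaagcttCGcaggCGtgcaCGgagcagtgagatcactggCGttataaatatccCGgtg
Otx2 upstream window: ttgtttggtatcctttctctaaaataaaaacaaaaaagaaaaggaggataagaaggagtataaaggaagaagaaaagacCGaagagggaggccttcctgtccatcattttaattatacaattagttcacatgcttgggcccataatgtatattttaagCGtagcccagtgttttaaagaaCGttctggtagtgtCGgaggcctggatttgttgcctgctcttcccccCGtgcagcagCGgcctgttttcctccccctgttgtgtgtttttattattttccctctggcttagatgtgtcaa
Otx2 downstream window: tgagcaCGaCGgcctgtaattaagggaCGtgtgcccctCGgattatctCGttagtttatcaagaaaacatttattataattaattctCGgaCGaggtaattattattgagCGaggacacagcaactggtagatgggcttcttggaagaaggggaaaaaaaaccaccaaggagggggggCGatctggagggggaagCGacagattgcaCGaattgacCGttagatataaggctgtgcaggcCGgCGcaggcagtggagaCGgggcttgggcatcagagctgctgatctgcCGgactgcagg
Sall2 upstream window: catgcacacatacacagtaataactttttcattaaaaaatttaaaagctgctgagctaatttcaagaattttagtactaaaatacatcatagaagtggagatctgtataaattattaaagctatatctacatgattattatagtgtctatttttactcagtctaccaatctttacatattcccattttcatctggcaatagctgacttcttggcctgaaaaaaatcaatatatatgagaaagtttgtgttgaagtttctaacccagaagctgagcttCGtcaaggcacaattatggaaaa
Sall2 downstream window: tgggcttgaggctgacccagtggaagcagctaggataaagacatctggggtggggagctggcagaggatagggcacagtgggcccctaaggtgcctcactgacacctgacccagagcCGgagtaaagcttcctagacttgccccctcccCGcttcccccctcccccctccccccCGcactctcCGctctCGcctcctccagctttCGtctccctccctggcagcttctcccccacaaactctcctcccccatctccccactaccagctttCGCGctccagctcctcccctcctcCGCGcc
Lef1: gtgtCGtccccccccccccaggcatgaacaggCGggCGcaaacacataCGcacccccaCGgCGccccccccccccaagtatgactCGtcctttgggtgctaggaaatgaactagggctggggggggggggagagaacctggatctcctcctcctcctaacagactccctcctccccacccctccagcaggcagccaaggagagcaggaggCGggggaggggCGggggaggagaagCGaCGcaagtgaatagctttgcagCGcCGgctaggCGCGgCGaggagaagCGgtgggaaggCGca

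The median over 32851 windows was 7 CpGs, and 87.1% of windows had fewer than Fgf5 whereas 5.43% and 56.5% had fewer than the upstream and the downstream Sall2 window. Methylation of these promoters was not measured here. A pair of short motifs was searched on both strands as a description. TAATCC, a bicoid-class homeodomain core that Otx2 can bind, occurred in 1 of the 11 windows, the downstream Otx2 window shown, and in 7.06% of all windows. CTTTGAT, a TCF/LEF core, occurred in 0 of 11 and in 3.73% of all windows. Neither motif contains the other.

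Compared between genes, per kilobase of annotated exon, the 7 genes differed widely in WT replicates. Tcf15 was by far the highest, at 47.7 ± 2.24 normalised reads per kilobase, followed by Otx2 at 6.48 ± 0.531, Sox3 at 3.47 ± 0.314, Sall2 at 2.50 ± 0.119, Pou3f1 at 2.20 ± 0.0965, Fgf5 at 0.907 ± 0.0921 and Lef1 at 0.352 ± 0.0387 (SD, n = 3). The ranges of neighbours in that order did not overlap, except for Fgf5 and Lef1 when the longest transcript was used as the length (Lef1, 0.846 ± 0.0931). In Dnmt1-/- replicates Tcf15 was again first, at 53.8 ± 1.53. Sox3 (3.83 ± 0.422) and Otx2 (3.49 ± 0.200) had overlapping ranges there, as did Lef1 (0.284 ± 0.0427) and Fgf5 (0.274 ± 0.101) at the bottom. With the longest transcript as the length neither pair overlapped, since Otx2 was then at 5.69 ± 0.326, above Sox3, and Lef1 at 0.683 ± 0.103, above Fgf5.

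Fgf5, Otx2 and Sall2 were lower in the Dnmt1-/- line, Tcf15 was slightly higher, and Pou3f1, Sox3 and Lef1 did not pass the test (limma, Benjamini-Hochberg adjusted p below 0.05 over 17297 genes). Fold changes are on the scale of log2 (normalised reads + 0.5), which understates those of low genes such as Fgf5 and Lef1. The line difference touched much of the transcriptome. Of all genes tested 71.2% passed, 35.8% higher and 35.4% lower, and the median absolute log2 fold change was 0.36. Among the 7 genes, 3 were called lower and 1 higher, and 1 was called lower and at least 2-fold apart, which held for 9.41% of all genes, while 0 were higher by that much, against 3.67%. Their median log2 fold change was -0.26, against 0.01 for all genes. In bulk RNA, fewer cells expressing a gene and less RNA per cell cannot be told apart.

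Fgf5, the FGF ligand (chr5:98254184-98277030, plus strand, GENCODE vM21 on GRCm38, the source of all gene positions), had the largest log2 fold change of the 7 at the pseudocount used. It was at 2.46, 2.34 and 2.01 normalised reads in WT libraries 1 to 3, and at 0.975, 0.526 and 0.553 in the Dnmt1-/- libraries. Every Dnmt1-/- value was below every WT value. The log2 fold change was -1.24 (SE 0.15, adjusted p = 9.7e-08, limma), and 91.6% of genes had a smaller change in size. With a pseudocount of 5 its log2 fold change was -0.36, smaller in size than those of Otx2 (-0.71) and Sall2 (-0.59), and over 13 alternative settings it ranged from -1.74 to -0.36. The gene rested on few reads, 56 to 90 per WT library and 15 to 28 per Dnmt1-/- library.

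Otx2 fell as well. It was at 26.1, 26.0 and 30.0 normalised reads in WT and at 14.7, 13.9 and 15.6 in Dnmt1-/- cells, 2 ranges far apart. The log2 fold change was -0.87 (SE 0.07, adjusted p = 1.8e-10, limma). Otx2 (chr14:48657677-48673819, minus strand) shares 154 exon bases with Otx2os1, a long noncoding RNA gene on the opposite strand, and 168 with Gm49154 on the same strand, which was not analysed here. Otx2os1 had 564 to 674 reads in WT and 289 to 354 in Dnmt1-/- replicates, but 0 to 5 counts in each library of the joint table. Whether counting used strand was not given in the sources used here, so reads of the pair cannot be fully told apart where they overlap.

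Sall2 (chr14:52311172-52328762, minus strand) showed a like difference. Its values were 13.1, 14.3 and 13.3 in WT and 6.89, 7.73 and 7.55 in Dnmt1-/- libraries, again without overlap (log2 fold change -0.84, SE 0.09, adjusted p = 5.7e-09, limma).

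Pou3f1 (chr4:124656807-124660655, plus strand) and Sox3 (chrX:60891366-60893430, minus strand) had ranges that overlapped between the lines. Pou3f1 was at 8.78, 8.05 and 8.55 normalised reads in WT and 11.3, 8.65 and 8.66 in Dnmt1-/- cells, where library 1 stood above the rest. Its log2 fold change was 0.15 (95% interval -0.05 to 0.36, adjusted p = 0.17, limma). Sox3 was at 7.40, 7.66 and 6.43 in WT and 7.17, 8.88 and 7.70 in Dnmt1-/- libraries, and its log2 fold change was 0.13 (95% interval -0.08 to 0.34, adjusted p = 0.24, limma). Pou3f1 shares 330 exon bases with the antisense gene Gm2164, which had 10 to 32 reads per replicate library.

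Lef1, the Wnt effector of the group (chr3:131110471-131224356, plus strand), was at 2.88, 2.91 and 3.48 in WT and 2.12, 2.50 and 2.87 in Dnmt1-/- libraries. The highest Dnmt1-/- value lay just under the lowest WT value. Its log2 fold change of -0.26 missed the threshold (95% interval -0.53 to 0.002, adjusted p = 0.07, limma), but passed it without Dnmt1-/- replicate 3 (-0.35, adjusted p = 0.031) and with a pseudocount of 5 (-0.11, adjusted p = 0.048). Over 13 alternative settings its adjusted p ranged from 0.031 to 0.28. Lef1 shares 1208 exon bases with the antisense gene Gm43352, which had 0 or 1 reads per library.

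Tcf15 (chr2:152143561-152149097, plus strand), the most abundant of the 7 per kilobase, was the one gene called higher. It was at 44.3, 48.6 and 47.2 normalised reads in WT and 54.1, 52.9 and 51.1 in Dnmt1-/- cells, which do not overlap. The rise was small, with a log2 fold change of 0.17 (SE 0.06, adjusted p = 0.0078, limma). Without WT replicate 1 it was 0.14 with an adjusted p of 0.053. Over 13 alternative settings the adjusted p ranged from 0.003 to 0.053.

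**Figure D1:**
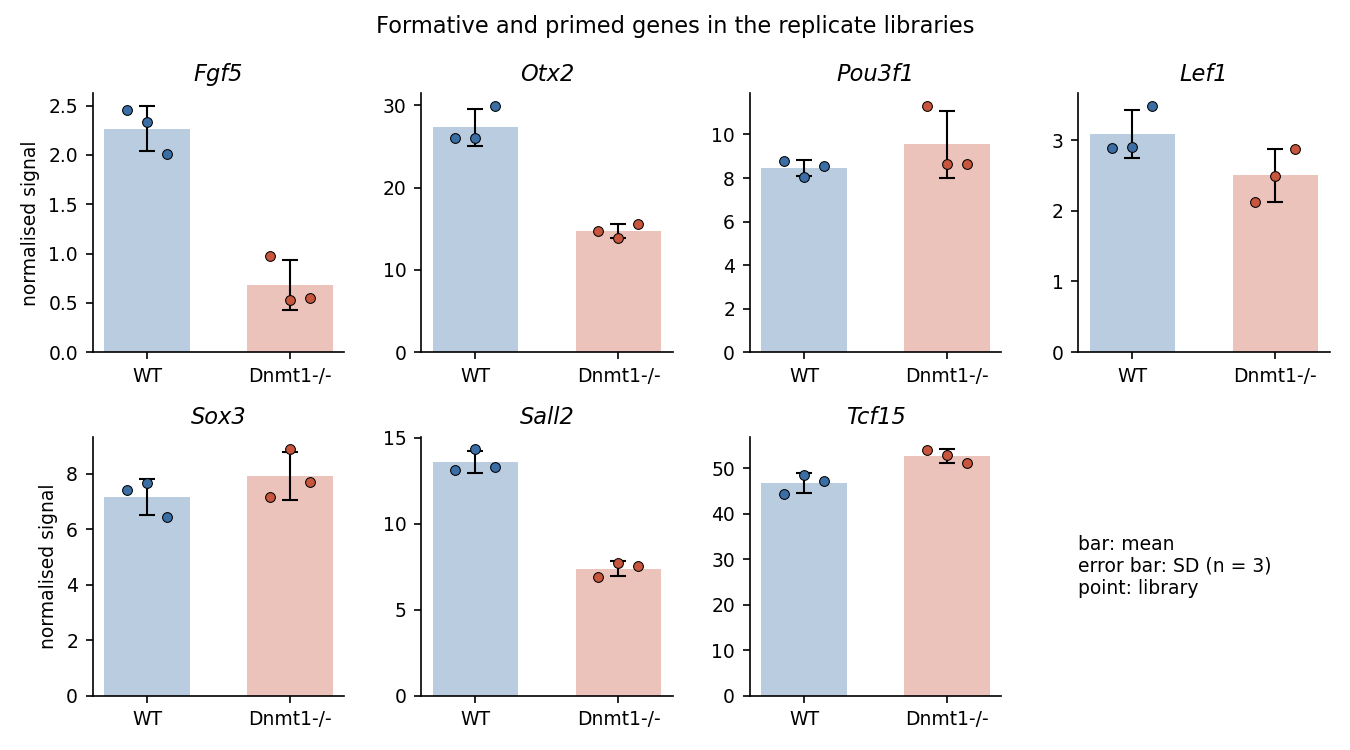
Normalised reads (vertical axes, from 0) of the 7 genes in WT and Dnmt1-/- replicates, 1 point per library with the mean and SD (n = 3). Fgf5, Otx2 and Sall2 lie lower in all 3 Dnmt1-/- libraries, Tcf15 lies slightly higher, and Pou3f1 and Sox3 overlap.

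Across the 7 genes, 5 had ranges that did not overlap between the lines, which held for 73.3% of all genes tested.

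Other genes of the formative and primed programme moved in both directions. Of the 11 tested, 6 were higher, 5 lower and 0 not called. Of all genes tested 35.8% were called higher and 35.4% lower, which is the background for each list below. Dnmt3b, a de novo DNA methyltransferase, rose from 127 ± 5.26 to 276 ± 11.3 normalised reads, and Grhl2, a grainyhead factor of epithelial enhancers, rose from 19.6 ± 0.549 to 42.3 ± 0.421. Cdh2 (N-cadherin) fell from 49.0 ± 4.76 to 13.1 ± 0.699, and Zic2, a zinc finger factor of the epiblast and neural plate, from 79.1 ± 2.40 to 29.7 ± 1.55.

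Of 12 naive genes, 2 were higher, 6 lower and 4 not called. Dppa3 (Stella), the naive gene with the largest change, rose from 1.51 ± 0.204 to 16.7 ± 2.24 normalised reads. The orphan receptor gene Nr0b1 (Dax1) fell from 192 ± 3.89 to 89.8 ± 4.67 and Prdm14, a repressor of FGF signalling in naive cells, from 43.2 ± 1.80 to 27.0 ± 0.748. Nr5a2, the other gene called higher (log2 fold change 0.13, adjusted p = 0.041, limma), lost the call in 8 of 13 alternatives, among them leaving out WT replicate 1 (adjusted p = 0.14), WT replicate 2 (0.13), Dnmt1-/- replicate 1 (0.072) or Dnmt1-/- replicate 3 (0.15). Klf4, called lower, lost it without WT replicate 3, Dnmt1-/- replicate 1 or Dnmt1-/- replicate 2 (adjusted p 0.063 to 0.1), which did not move the count by more than 1.5 times. Of 5 core pluripotency genes, 2 were higher and 3 lower, with no change reaching 2-fold.

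In the FGF pathway, receptors moved apart. Fgfr4 rose from 3.32 ± 0.341 to 9.22 ± 0.278 normalised reads and Fgfr3 from 2.20 ± 0.414 to 5.55 ± 0.238. Fgfr1 fell from 113 ± 6.81 to 84.1 ± 0.979, and Fgfr2 from 97.2 ± 5.60 to 85.1 ± 7.54 with overlapping ranges, a call lost without Dnmt1-/- replicate 2 (adjusted p = 0.077). Fgf4, the main FGF ligand of ES cells, was at 209 ± 5.02 and 203 ± 6.19 and did not pass. Among 7 ERK feedback and target genes, 2 were higher, 2 lower and 3 not called. The ETS factor gene Etv4 rose from 61.1 ± 0.514 to 150 ± 1.67, whereas Etv5 fell from 528 ± 28.1 to 451 ± 14.6. The call of Spry2, a feedback inhibitor, was lost without WT replicate 3, Dnmt1-/- replicate 1 or Dnmt1-/- replicate 2 (adjusted p 0.055 to 0.069).

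Among the other nuclear effectors of Wnt signalling, Tcf7l1 fell from 92.6 ± 4.73 to 66.1 ± 3.17 and Tcf7l2 from 12.4 ± 0.489 to 10.1 ± 0.848. Tcf7, near the floor in this set, rose from 0.248 ± 0.0415 to 0.499 ± 0.0150 (adjusted p = 0.086 with DESeq2). It was far from the floor in the single libraries, at 117.6 cpm in WT and 181.5 in Dnmt1-/-, and the reason was not tested. Ctnnb1 (β-catenin) did not pass. Of 6 Wnt target genes, 4 were lower and 2 not called. The homeobox gene Cdx1 fell from 8.81 ± 0.394 to 2.07 ± 0.205, the Wnt deacylase gene Notum from 8.69 ± 0.550 to 2.90 ± 0.123, Ccnd1 (cyclin D1) from 110 ± 11.7 to 39.4 ± 2.95 and the feedback gene Axin2 from 20.6 ± 0.418 to 14.1 ± 0.794.

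Of 6 paralogues of the 7 genes that could be tested, 1 was higher and 4 lower. Like Sall2, its relatives Sall3 (36.6 ± 2.50 to 9.35 ± 0.773), Sall1 (283 ± 13.1 to 91.0 ± 1.46) and Sall4 (393 ± 22.8 to 340 ± 13.5) fell. Otx1, a gene near the floor, rose from 0.436 ± 0.162 to 1.26 ± 0.461 while Otx2 fell. Among 6 bHLH partners and inhibitors, 5 were lower and 1 higher. Id3 fell from 135 ± 16.4 to 45.1 ± 1.52 and Tcf4 from 75.4 ± 2.62 to 32.7 ± 1.34. Id1 and Id2 also fell, by 0.29 each on the log2 scale, and Tcf3, which encodes the E2A partner proteins, rose from 138 ± 5.12 to 162 ± 2.52.

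Markers of other cell types also differed between the lines, in both directions. All 7 fibroblast markers were lower in Dnmt1-/- cells (summed level 1072 to 1540 normalised reads in WT, 251 to 281 in Dnmt1-/-), with Dcn (decorin) at 56.9 ± 6.54 and 6.92 ± 1.34, Postn (periostin) at 29.1 ± 4.17 and 3.68 ± 0.632, and the more abundant collagen gene Col1a1 at 539 ± 108 and 125 ± 7.41. All 5 neuroectoderm markers tested were lower (summed level 128 to 147, against 50.9 to 53.3), although the call of Six3 was lost without WT replicate 1 or 3 or Dnmt1-/- replicate 1 or 2 (adjusted p 0.088 to 0.13). Of 7 primitive endoderm markers 6 were higher (143 to 146, against 204 to 213), and of 3 trophoblast markers tested 3 were higher (3.54 to 4.16, against 15.3 to 17.2). Of 6 markers of 2-cell-like cells, 5 were lower (381 to 408, against 147 to 171). Primitive streak markers were split, with 2 of 6 higher and 3 lower, and their sums were 8.81 to 10.1 in WT and 12.5 to 13.2 in Dnmt1-/- cells. The neuroectoderm marker Sox1 and the trophoblast marker Tpbpa were not analysed in this set, and none of the markers that were analysed was at 0 in all 6 libraries. Their part in the differences of the 7 genes was not tested.

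The joint table gave a separate WT and Dnmt1-/- library each, with no replicate check. Its 2 libraries are not tied by their labels to any of the 6 replicates. Ratios are given on log2 (cpm + 0.5), and intervals are exact 95% intervals that cover counting error only. None of the 7 genes was 2-fold apart (0 of 7), a size that 17.8% of 13936 genes reached, 10.5% upward and 7.34% downward. Sall2 was lower here also, at 32.1 cpm in WT and 17.0 in Dnmt1-/- (log2 ratio -0.89). Lef1 was at 25.9 and 14.3 cpm (-0.83) and Tcf15 at 59.5 and 39.6 (-0.58), the opposite sign to its rise in the replicates. Otx2 was at 79.6 and 96.7 cpm (0.28), also opposite in sign to the replicates, and Pou3f1 at 28.3 and 37.3 (0.39). Fgf5 rested on 49 and 37 counts, 1.98 and 1.95 cpm, and the sign of its ratio (-0.02) turned with other scalings. Sox3 was at 14 and 11.5 cpm (-0.28). Of the 4 genes called in the replicates, Sall2 thus had the same sign in both sets, Otx2 and Tcf15 had opposite signs, and Fgf5 had a ratio near 0 in the single libraries. The sets also differed in the counts of Otx2os1 given above, and the part of this in the Otx2 values was not tested. Genes of the other lists were likewise mixed. Notum (log2 ratio 1.25), Etv4 (-0.47), Fgfr3 (-0.61), Fgfr4 (-0.34), Dnmt3b (-0.14) and Sall1 (0.17) had the opposite sign to the replicates. Zic2 (-0.09) and Cdh2 (-0.18) had small ratios. Dppa3 (2.84), Grhl2 (0.56), Id3 (-1.89), Axin2 (-1.12) and Cdx1 (-2.02) kept their sign. Summed trophoblast markers were at 35.8 cpm in WT and 5.94 in Dnmt1-/-, primitive endoderm markers at 52.7 and 18, and primitive streak markers at 33.4 and 15.4, all opposite in direction to the sums in the replicates. Sums were also lower in the Dnmt1-/- library for 2-cell-like (15.5 and 0.526 cpm), fibroblast (49.0 and 30.7) and neuroectoderm markers (81.6 and 69.1). Their part was not tested.

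**Figure D2:**
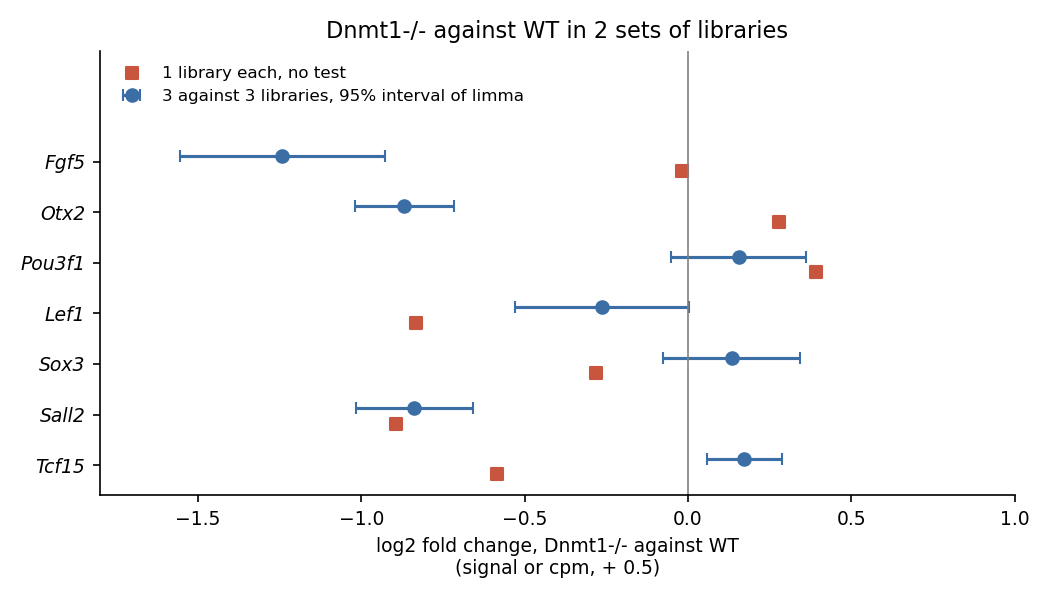
Log2 fold change of Dnmt1-/- against WT (horizontal axis) for each of the 7 genes in the replicate libraries (3 against 3, with 95% interval from limma) and in the single libraries (1 against 1, no test). Sall2 lies below 0 in both sets, whereas Otx2 is at -0.87 in the replicates and 0.28 in the single libraries.

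The active and the inactive fusion were compared to ask what O-GlcNAc hydrolase activity directed at IAP elements does. The 2 libraries share cell type, guides and induction. The fusions were carried by separately made cells with 1 library each, so hydrolase activity and a difference between those cells cannot be told apart. Otx2 differed most among the 7 genes. It was at 7.57 cpm (188 counts) with active and 78.6 cpm (1953 counts) with inactive OGA, 10.4-fold lower with active OGA (95% counting interval 8.93 to 12.1). Of 13936 genes, 24 had a lower ratio. Sall2 was at 5.48 and 15.0 cpm, 2.74-fold lower (2.24 to 3.36). These were the 2 of 7 genes at least 2-fold lower on the log2 (cpm + 0.5) scale, a size reached by 8.41% of all genes, and 0 of 7 were 2-fold higher, against 4.82% (13.2% in either direction). With a pseudocount of 5 cpm the count was 1, as the log2 ratio of Sall2 was then -0.93. The median log2 ratio of the 7 was -0.88, against 0.01 for all genes.

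Fgf5 and Lef1 were scarce in both libraries. Fgf5 had 9 counts with active and 29 with inactive OGA, a 3.22-fold difference with a wide interval (1.48 to 7.73), and Lef1 had 9 and 27, a 3.00-fold difference (1.37 to 7.24). Both are below 2-fold once 0.5 cpm is added. Sox3 was at 2.46 and 3.66 cpm (1.49-fold lower, 1.07 to 2.1) and Pou3f1 at 15.6 and 20.1 cpm (1.29-fold lower, 1.13 to 1.48). Tcf15 went the other way, at 44.1 cpm with active and 26.0 cpm with inactive OGA, 1.70-fold higher (1.54 to 1.87), and the WT library was higher than both, at 59.5 cpm. With 1 library per group, these intervals compare the 2 libraries and not the conditions.

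**Figure D3:**
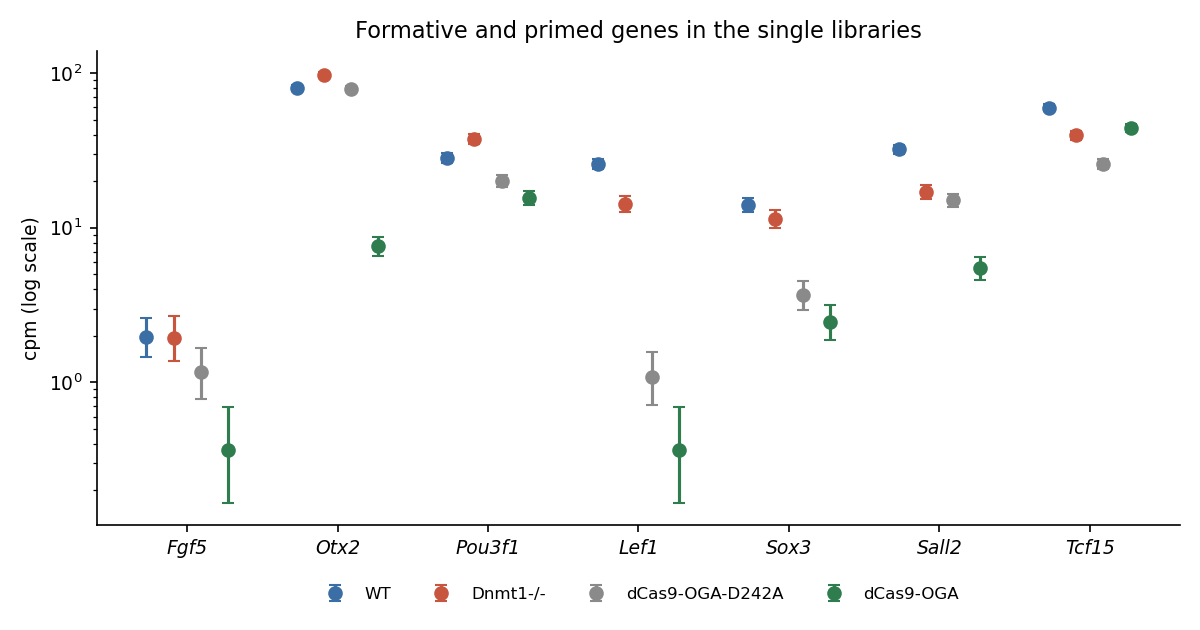
Cpm (log axis) of the 7 genes in the 4 single libraries, with exact 95% counting intervals. Otx2 is near 80 cpm in WT and dCas9-OGA-D242A and at 7.57 cpm in dCas9-OGA, and Lef1 is at 25.9 cpm in WT and about 1 cpm or less in both fusion libraries.

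The inactive fusion library and the single WT library also differed from each other. Lef1 was at 1.09 cpm in dCas9-OGA-D242A and 25.9 cpm in WT, 23.8-fold lower (16.2 to 36.4), and 3 of 13936 genes had a lower ratio. The single WT library had 641 Lef1 counts, whereas the WT replicates, each with more reads in total, had 88 to 112. The reason was not tested. Sox3 was 3.83-fold lower (3.04 to 4.88), Tcf15 2.29-fold (2.09 to 2.52) and Sall2 2.14-fold (1.89 to 2.42). Thus 4 of 7 genes were at least 2-fold lower, compared with 8.37% of all genes, and 0 were 2-fold higher, compared with 12.6% (20.9% in either direction). Otx2 was at 78.6 and 79.6 cpm, a log2 ratio of -0.02 whose sign turned with another scaling. Fgf5 and Pou3f1 were 1.69-fold (1.05 to 2.78) and 1.41-fold (1.26 to 1.59) lower. WT cells had neither the fusion, the guides nor doxycycline, though the label of this library gives only the group. These factors and a trait of the single WT library cannot be told apart.

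With active OGA against WT, all 7 genes had lower values and 5 were at least 2-fold lower, compared with 10.8% of all genes, while 0 were 2-fold higher, compared with 13.7% (24.5% in either direction). Lef1 was 71.3-fold lower (37.3 to 157), Otx2 10.5-fold (9.04 to 12.3), Sall2 5.85-fold (4.87 to 7.07), Sox3 5.71-fold (4.34 to 7.63) and Fgf5 5.45-fold (2.65 to 12.6). The comparisons with WT share its library, and those with dCas9-OGA-D242A share that one, so they are not independent. Side by side, the low Otx2 level was found with active OGA and not with the inactive fusion, whereas Lef1 was low with either. Markers of other cell types were also unequal. Summed 2-cell-like markers were at 15.5 cpm in WT and 0.282 to 1.05 in the other libraries, trophoblast markers at 35.8 and 0.927 to 7.93, and primitive streak markers at 33.4 and 6.65 to 15.4. Primitive endoderm markers summed to 52.7 cpm in WT, 38.5 with active and 20.4 with inactive OGA. Neuroectoderm markers summed to 81.6, 54.2 and 54.1, although of 4 compared 2 were higher (Sox1, 13.4 against 1.25 cpm, and Ncam1, 24.7 against 8.05) and 2 lower (Pax6, 0.363 against 4.99, and Nes, 15.5 against 39.2) by 2-fold or more with active than with inactive OGA. Fibroblast markers summed to 49.0, 40.8 and 61.3. Of the trophoblast markers 1 had no count in any of the 4 libraries. Their part in these ratios was not tested.

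**Figure D4:**
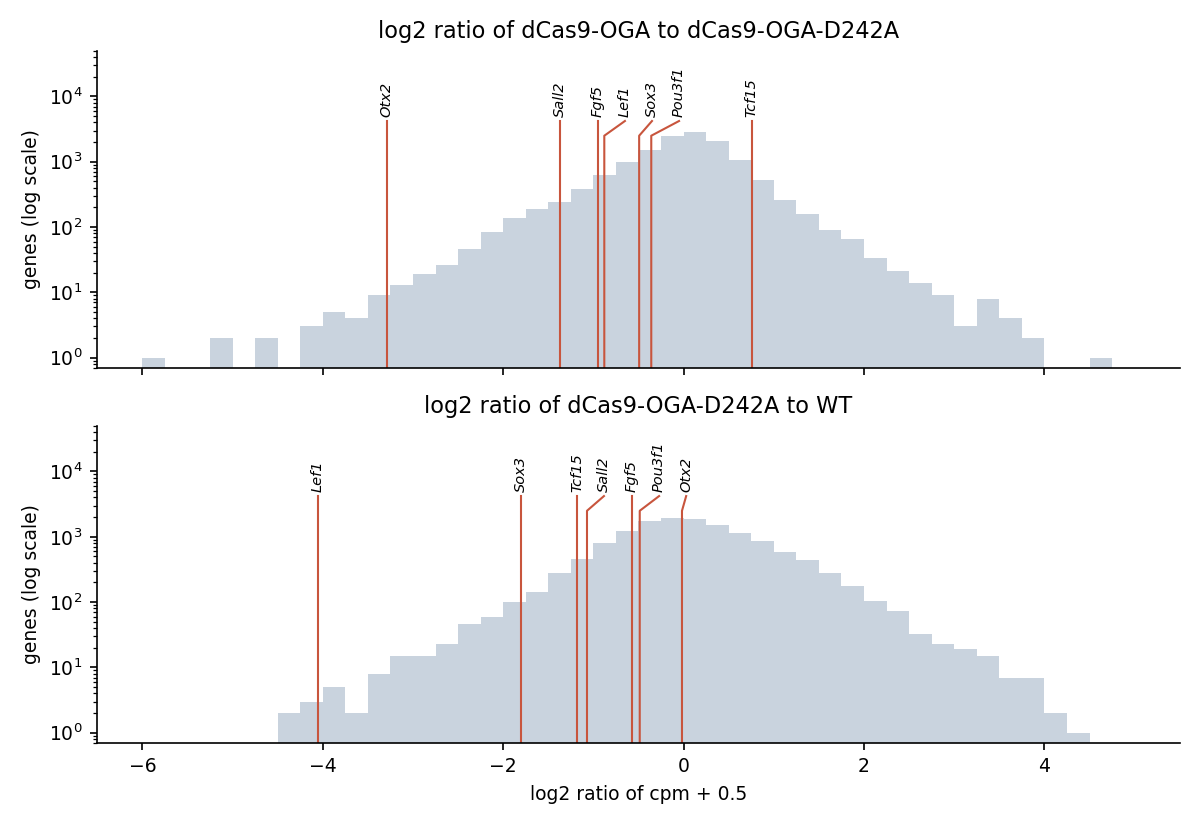
Distribution of log2 ratios over 13936 genes (vertical axis, number of genes on a log scale) with the 7 genes marked. The upper panel sets active against inactive OGA and the lower panel sets inactive OGA against WT. Otx2 lies at -3.29 in the first and Lef1 at -4.05 in the second, each in the lower tail.

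The remaining formative and primed genes lay mostly on the same side as Otx2 when active was set against inactive OGA. Of 11 compared, 6 were lower by 2-fold or more and 1 was higher by that much, with a median log2 ratio of -1.13. Of all genes 8.41% were lower and 4.82% higher by that much, which is also the background for the naive and core lists. With active OGA, inactive OGA and no fusion (WT) in that order, Cdh2 was at 0.725, 9.58 and 9.44 cpm, Zic2 at 2.74, 16.9 and 42.6 and Dnmt3a at 62.4, 252.1 and 244.9. Foxd3, at 67.2, 19.6 and 104.7 cpm, was below WT in both fusion libraries and lowest with inactive OGA. Naive genes lay mostly on the other side, with 5 of 12 higher by 2-fold or more, 1 lower by that much and a median of 0.82. In the same order, Klf5 was at 484.0, 80.2 and 162.1 cpm and Tfcp2l1 at 929.6, 186.6 and 201.0. Tbx3 was at 243.1, 33.1 and 273.9 cpm, so that for this gene the inactive library was the one that stood apart from WT. Against WT, 2 of the 12 naive genes were higher by 2-fold or more with active OGA and 1 (Dppa3) was lower by that much (median log2 ratio 0.38). With inactive OGA 1 (Dppa3) was higher and 3 were lower (median -0.50). Of all genes 13.7% were higher and 10.8% lower with active OGA, and 12.6% and 8.37% with inactive OGA. Between active and inactive OGA, Dppa3 went against most naive genes, at 1.29 and 29.3 cpm. Klf2 (201.5 and 376.3) and Zfp42 (419.9 and 494.3) were also lower with active OGA, by less than 2-fold. Of 6 core pluripotency genes 0 were 2-fold apart, with Sox2 at 752.2 and 754.6 cpm and Pou5f1 at 1345 and 885.8.

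**Figure D5:**
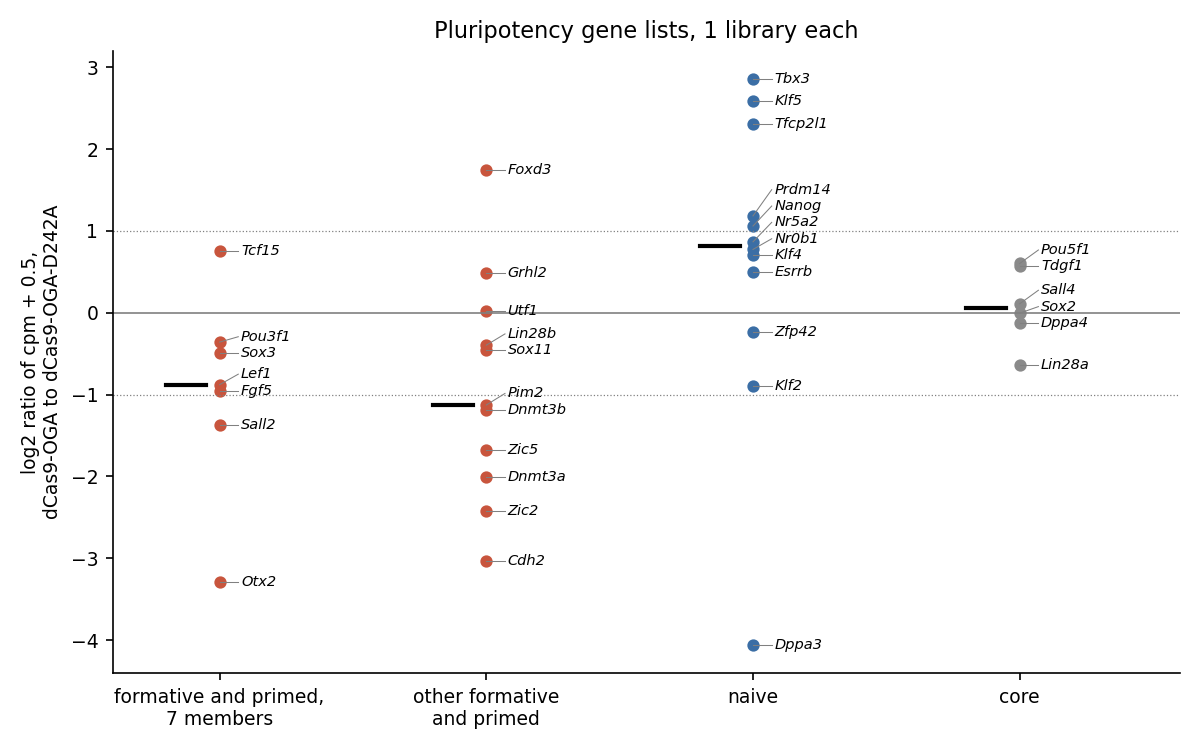
Log2 ratio of dCas9-OGA to dCas9-OGA-D242A (vertical axis, cpm + 0.5, 1 library each) for the 7 genes and for the other formative, the naive and the core pluripotency genes, 1 point per gene, with medians as black bars and dotted lines at 2-fold. Points of the other formative genes lie mostly below 0 (median -1.13) and naive genes mostly above (median 0.82), while core genes lie between -0.64 and 0.60 (median 0.05).

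In the FGF pathway, and again with active OGA, inactive OGA and WT in that order, Fgfr2 was at 2.78, 26.0 and 14.1 cpm, Fgfr3 at 15.9, 2.49 and 3.87, and Fgf4 at 354.2, 244.3 and 359.2. Of 7 ERK feedback and target genes, 5 were higher and 2 lower with active than with inactive OGA, with a median log2 ratio of 0.81. Spry2 (169.7, 68.4 and 177.8 cpm) and Etv4 (273.5, 114.8 and 215.0) were at least 2-fold higher with active than with inactive OGA, with the active library the closer to WT. Dusp4 (9.63, 59.7 and 53.7) was at least 2-fold lower with active OGA, with the inactive library the closer to WT. Of the Wnt effectors related to Lef1, Tcf7 was at 66.7, 188.0 and 117.6 cpm and Tcf7l1 at 79.6, 90.9 and 180.7. The Wnt targets Axin2 (7.86, 18.8 and 40.8 cpm) and Notum (4.88, 11.7 and 21.1) were at least 2-fold lower with active than with inactive OGA, and higher in WT than in either. Nkd1 (3.06, 11 and 2.91 cpm) and Cdx1 (104, 4 and 96 counts) had like values with active OGA and in WT and differed in the inactive library. Sp5 (0.967, 1.17 and 13.1 cpm) and Ccnd1 (103.1, 93.5 and 253.8) were at least 2-fold lower than WT in both fusion libraries.

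Genes with the most similar pattern were sought by Euclidean distance between centred log2 values over all 10 libraries, among 12786 genes. The nearest to Otx2 was Crmp1, a neuronal phosphoprotein gene, at a distance of 0.68. It was at 10.1 cpm with active and 106.0 cpm with inactive OGA, against 69.8 cpm in the WT library and 119.5 cpm in the Dnmt1-/- library. Tcf15 was nearest to Orai1 (0.17), Pou3f1 to the ribosomal protein gene Rpl15 (0.22), Sall2 to Car3 (0.39), Sox3 to Pfkfb3 (0.40) and Fgf5 to Itfg2 (0.42). Lef1 had the least close partner, Ccno at 1.19.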

How the data were processed

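PolyA RNA-seq values of 6 replicate libraries (3 WT, 3 Dnmt1-/-) and 4 single libraries were used. ChIP-seq libraries were not analysed here. The authors aligned reads to mm10 (HISAT2 2.1.0 for the replicates, TopHat2 2.0.11 named for the fusion libraries, per the processing notes) and counted genes with featureCounts 1.5.0. The deposited replicate values are a signal, namely counts divided by a scaled library size, and 100% were whole reads within a tolerance of 0.001 once divided by the value of 1 read. The deposited joint table holds raw counts. The labels and the methods name different library kits, and the strand setting of counting was not given in the sources used here. Headers of the replicate tables do not match their columns, so values were taken by position.

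Replicate values were tested as log2 (value + 0.5) with limma 3.58.1 (trend) on 17297 of 26797 genes passing the edgeR 4.0.16 filter, with Benjamini-Hochberg adjustment. Single libraries were scaled by TMM, and genes with at least 100 counts over the 4 libraries were compared without a test. Intervals are exact 95% binomial or Poisson and cover counting error only. Gene positions and lengths came from GENCODE vM21 on GRCm38, in Python 3.11.15 and R 4.3.3. The main limma fit and the edgeR and DESeq2 fits were also run on simulated data, and the other alternatives were not.

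Alternatives were other pseudocounts, no filter, TMM, DESeq2 1.42.0, a replicate block, each replicate left out and, added after seeing the data, edgeR quasi-likelihood on recovered reads. The members and gene lists were chosen with earlier results of these data known. Genes set to be named were the 7 members, from each list the 2 largest rises and falls that passed, any gene of lists with 6 or fewer, Dnmt1, and the nearest gene to each member. Not all of these are named in the text, and some lists of cell type markers are given only as counts and sums. Single-library ratios of other named genes, Nanog as a marker, and Col1a1, Klf4, Nr5a2 and Six3 were picked after their values were seen.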

Additional observations from a re-analysis of the deposited data

How the results depend on the processing

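Of the member fold changes in the replicates, 88 values under an alternative kept direction and side of the threshold, 2 (both Lef1) newly passed and 1 (Tcf15) no longer passed. The number of members called higher was 0 to 1 when each replicate was left out, 0 without WT replicate 1, the number called lower 3 to 4, and the number lower and at least 2-fold stayed at 1 to 1. With a pseudocount of 5 that number was 0, since Fgf5 is low. With a pseudocount of 5 cpm the members at least 2-fold lower with active than with inactive OGA fell to 1 (Otx2). Of the single-library ratios under an alternative, 8 moved beyond their counting interval, all with that pseudocount, 3 reversed and 101 did neither. Reversed signs were Otx2 in dCas9-OGA-D242A to WT, 0.001621 with total counts as library sizes, and Fgf5 in Dnmt1-/- to WT, 0.01577 with total counts and 0.02127 with DESeq2 size factors, and the cause was not tested. Replicate numbers did not pair the samples, as correlations of same-numbered deviations were 0.074, -0.016 and 0.065. A replicate block gave 12556 calls over all genes against 12324 and changed no member call. Depth limits Fgf5 and Lef1, at 9 to 29 counts in the fusion libraries.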
